A study of Mus musculus with 26 samples.

Results

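The general pluripotency genes around Pou5f1 described here are Pou5f1, Sall4, Zfp281, Utf1, Dppa2, Dppa4, Dppa5a, Lin28a and Lin28b. They were taken by name, with no threshold on a measured value. Of these 9 genes, 8 have an RNA level among the 15646 genes of the RNA-seq table, and 8 have a named bait fragment among the 19022 bait fragments named in the 3 lists of promoter contacts. Lin28b has neither a row in the table nor a bait named for it in the lists, so its level and contacts were not analysed here. A captured promoter without any listed contact would have no name in the lists, so whether Lin28b was baited is unknown. RNA levels are RPKM, reads normalized to transcript length and library size, with 1 median value for each cell state. Promoter contacts come from promoter capture Hi-C (PCHi-C), in which HindIII fragments held near each other by cross-linking are ligated, the products that hold a promoter are captured with RNA baits, and each pair of fragments is scored with CHiCAGO against the reads that its distance would give.

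The 3 cell states were wild-type (WT) ESCs, EpiSCs and Nanog-/- ESCs. WT ESCs are the E14Tg2a line, derived from the inner cell mass and grown on gelatin in serum with LIF, and they stand for the naive, pre-implantation end of pluripotency. Nanog-/- ESCs are 1 line, RCNβH-B(t), made from E14Tg2a and grown in the same way, with hygromycin during expansion. EpiSCs are an embryo-derived line grown on fibronectin in N2B27 medium with Activin A and bFGF, and they stand for the primed, post-implantation epiblast. EpiSCs therefore differ from both ESC lines in origin and in medium as well as in state, and these cannot be told apart. The growth protocol gives the strain 129P2/OlaHsd for E14Tg2a and 129S2 for the EpiSCs, whereas the strain label of every sample reads C57BL/6. RNA-seq was made from 3 WT ESC, 4 EpiSC and 3 Nanog-/- ESC samples, and PCHi-C from 5, 2 and 5 sequencing lanes. Since the levels are group medians and the lists are combined over replicates, no value below has a replicate error, no difference was tested, and a difference was called when it exceeded 2-fold.

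OCT4, the product of Pou5f1, is a POU-domain transcription factor that binds octamer DNA together with SOX2 and is required for both naive and primed pluripotency. SALL4 and ZFP281 are zinc finger proteins that share many binding sites with OCT4, SALL4 recruits the NuRD deacetylase complex, and ZFP281 is known for its part in the passage from the naive to the primed state. UTF1 is a chromatin-bound protein found in pluripotent and germ cells. DPPA2 and DPPA4 are SAP-domain proteins that bind chromatin as a heterodimer and are encoded side by side, and DPPA5A is an RNA-binding protein with a KH domain. LIN28A and LIN28B bind precursors of let-7 microRNAs and block their maturation.

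The contacts below were captured through the bait fragments, and where a promoter was matched inside a bait it is shown first. RefSeq promoters (GRCm38.p6, 250 bases before to 50 after a start site) were matched for 5 of the 9 genes, Pou5f1, Zfp281, Utf1, Lin28a and Lin28b, as 6 sequences. Those of Pou5f1 (chr17:35505782-35506081, plus strand), Lin28a (chr4:134018767-134019066, minus strand), Zfp281 (chr1:136624651-136624950, plus strand) and Utf1 (chr7:139943606-139943905, plus strand) lie inside their bait fragments and are given 5′ to 3′. Capitals mark GGGGAGGG, letters of the kind that ZFP281 binds, and CATTGT, the core letters of SOX factor sites.
Pou5f1: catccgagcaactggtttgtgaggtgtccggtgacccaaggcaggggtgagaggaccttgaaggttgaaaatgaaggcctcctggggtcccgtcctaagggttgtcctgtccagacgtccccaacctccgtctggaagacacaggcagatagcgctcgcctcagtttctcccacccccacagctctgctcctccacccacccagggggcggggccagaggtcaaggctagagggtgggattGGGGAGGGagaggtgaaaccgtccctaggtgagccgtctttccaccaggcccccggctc
Lin28a: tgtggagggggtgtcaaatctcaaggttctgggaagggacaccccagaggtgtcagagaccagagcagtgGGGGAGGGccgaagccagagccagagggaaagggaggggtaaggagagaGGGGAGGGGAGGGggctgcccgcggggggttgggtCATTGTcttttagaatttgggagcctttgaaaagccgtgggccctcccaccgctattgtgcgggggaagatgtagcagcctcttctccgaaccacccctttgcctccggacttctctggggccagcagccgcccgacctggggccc
Zfp281: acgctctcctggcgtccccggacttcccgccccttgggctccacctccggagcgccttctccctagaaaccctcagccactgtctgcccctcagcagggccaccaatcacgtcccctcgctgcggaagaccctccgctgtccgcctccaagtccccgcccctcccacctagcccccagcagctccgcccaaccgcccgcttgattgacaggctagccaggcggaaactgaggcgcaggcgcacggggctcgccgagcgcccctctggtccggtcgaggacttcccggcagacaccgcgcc
Utf1: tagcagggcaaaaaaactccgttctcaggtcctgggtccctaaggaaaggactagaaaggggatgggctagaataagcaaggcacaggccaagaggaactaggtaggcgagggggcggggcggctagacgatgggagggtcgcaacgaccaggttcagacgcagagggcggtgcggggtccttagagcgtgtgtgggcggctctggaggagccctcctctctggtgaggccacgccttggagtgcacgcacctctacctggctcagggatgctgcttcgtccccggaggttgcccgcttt

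Searched on both strands, the Pou5f1 promoter holds GGGGAGGG at position 242, counted from 1 at the 5′ end. The Lin28a promoter holds it at positions 71, 120 and 125, of which the last 2 overlap, and holds CATTGT at position 155. GGGGAGGG is present in 10.8% of the 32851 promoters of the same length, and CATTGT in 12.6%. None of the 6 promoters holds the octamer ATGCAAAT, present in 1.74% of all promoters, nor TATAAA, present in 13.6%. The second Pou5f1 start site in the RefSeq table (chr17:35508557-35508856) lies outside the bait, and its promoter holds CATTGT on the other strand. A match of letters is a description of the sequence and not a measurement of binding.

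The labels were first checked with marker genes. Nanog had 418, 361 and 22.3 RPKM in WT ESCs, EpiSCs and Nanog-/- ESCs. All 7 measured naive markers, Klf2, Klf4, Esrrb, Tfcp2l1, Tbx3, Dppa3 and Nr0b1, were more than 2-fold lower in EpiSCs than in WT ESCs, and 5 of 9 primed markers, Fgf5, Sox3, Cer1, T and Eomes, were more than 2-fold higher (7 of 9 without scaling). In Nanog-/- ESCs 4 of the 9 primed markers, Fgf5, Zic2, Cer1 and T, and 2 of the 7 naive markers, Klf4 and Dppa3, were called lower than in WT ESCs. EpiSC values needed scaling, because the median ratio of EpiSC to WT ESC RPKM was 1.89 over 9077 genes at 1 RPKM or more in both, against 1.05 for Nanog-/- ESCs over 9496 genes. Levels in EpiSCs and Nanog-/- ESCs were divided by these ratios, and differences are on the log2(RPKM + 1) scale, which understates the change of low genes. Markers of other cells also moved between the states. The 6 primitive endoderm markers summed to 3.96 (WT ESCs), 65.1 (EpiSCs) and 58.9 scaled RPKM (Nanog-/- ESCs), and 4 and 5 of them were called higher in the latter states. Foxa2 made up 48.0 of the EpiSC sum and 2.42 of the Nanog-/- sum, whereas Gata4 and Sox7 were at 0.518 and 0.190 in EpiSCs and at 17.6 and 8.75 in Nanog-/- ESCs. The 4 fibroblast markers summed to 43.9, 202 and 49.6 scaled RPKM, with Col1a1, Col1a2 and Col3a1 higher in EpiSCs and none of the 4 called in Nanog-/- ESCs. The 5 trophoblast markers summed to 9.46, 7.48 and 12.5, with Hand1 alone called, higher in Nanog-/- ESCs. Of 2 measured neural markers, Nes was higher in EpiSCs at 144 scaled RPKM against 11.8, and Pax6 stayed between 1.07 and 1.66 in the 3 states. The part of such cells in the levels below was not tested, and in bulk RNA fewer cells of a type and less RNA per cell cannot be told apart.

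In EpiSCs, 4 of the 8 measured genes were more than 2-fold below WT ESCs, namely Dppa5a, Dppa4, Dppa2 and Utf1, and none was more than 2-fold above. Pou5f1, Sall4, Zfp281 and Lin28a stayed within 2-fold. Of all 15646 genes, 9.66% were called lower and 10.4% higher in this comparison. Among the 2025 genes at 50 RPKM or more in WT ESCs, a floor chosen afterwards because all 8 genes lie above it, 23.6% were called lower and 1.93% higher. The median difference of the 8 genes was -1.25, against 0.00 over all genes and -0.46 over the 2025 high genes. Without scaling it was -0.34, against 0.46 over all genes, and 3 of the 8 genes were lower, since Utf1 was then within 2-fold.

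**Figure D1:**
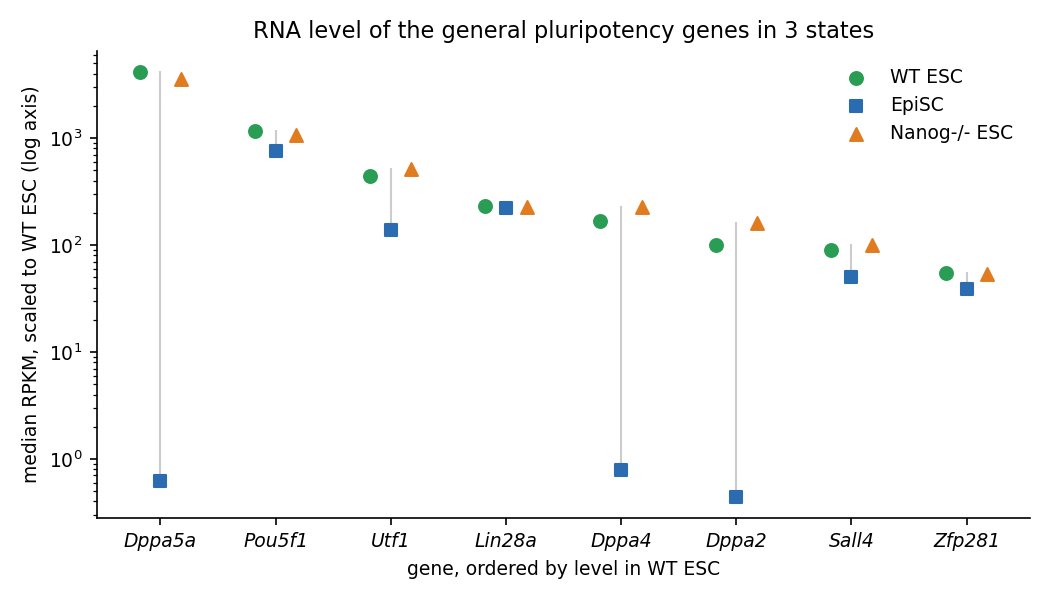
Median RPKM of the 8 measured genes (log vertical axis) in WT ESCs (circles), EpiSCs (squares) and Nanog-/- ESCs (triangles), with the last 2 divided by their median ratio to WT ESCs, 1 value per state and no error bars. Dppa5a, Dppa4 and Dppa2 drop below 1 scaled RPKM in EpiSCs, while the circle and triangle of each gene lie within 1.60-fold of each other. The squares of Pou5f1, Sall4, Zfp281 and Lin28a lie below the circles only after scaling, and without it all 4 are above.

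Pou5f1 was among the most abundant RNAs in every state, at 1159 RPKM in WT ESCs, 1422 RPKM in EpiSCs and 1129 RPKM in the Nanog-/- line. These levels placed it 43rd, 31st and 50th from the top. After scaling, the EpiSC level was 754 RPKM and the Nanog-/- level 1076 RPKM, which are differences of -0.62 and -0.11 from WT ESCs. The direction in EpiSCs depends on the scaling, since the difference was 0.29 without it, and -0.62 lies near the median of -0.46 for genes of high level. The RefSeq annotation holds several Pou5f1-related pseudogenes, and how reads shared with them were counted is not given in the sources used here.

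The genes whose levels were most like Pou5f1, by Euclidean distance of log2(RPKM + 1) over the 3 states, were Ube2s (0.20), Ybx1 (0.30), Eif5a (0.30), Gnb2l1 (0.37) and Ywhae (0.38). Ube2s encodes a ubiquitin-conjugating enzyme, Ybx1 a nucleic acid-binding protein, Eif5a a translation factor, Gnb2l1 the ribosomal scaffold RACK1 and Ywhae a 14-3-3 protein. Their scaled levels ran from 981 to 1276 RPKM in WT ESCs and from 613 to 807 RPKM in EpiSCs. With 3 values per gene, this likeness is mainly one of level.

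The zinc finger factors Sall4 and Zfp281 had lower levels than Pou5f1. Sall4 had 89.8 RPKM in WT ESCs, 94.9 in EpiSCs (50.4 after scaling) and 104 in Nanog-/- ESCs (99.3 after scaling). Its differences from WT ESCs were -0.82 in EpiSCs, or 0.08 without scaling, and 0.14 in Nanog-/- ESCs. Zfp281 had 54.5, 72.5 (38.4 after scaling) and 56.8 RPKM (54.1 after scaling). Its differences were -0.49 in EpiSCs, or 0.40 without scaling, and -0.01 in Nanog-/- ESCs. Neither gene was called in either comparison.

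Lin28a had the smallest scaled difference in EpiSCs, but of the 4 uncalled genes the largest without scaling. It had 231 RPKM in WT ESCs, and after scaling 219 RPKM in EpiSCs and 228 RPKM in Nanog-/- ESCs, with differences of -0.08 and -0.02. Without scaling the EpiSC difference was 0.84, from a deposited level of 414 RPKM, and with the scaling ratio taken over genes at 10 RPKM or more it was 0.07. The sign of the Lin28a difference is therefore set by the scaling.

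Utf1 was lower in EpiSCs by a moderate factor. It had 445 RPKM in WT ESCs, 262 RPKM in EpiSCs (139 after scaling) and 536 RPKM in Nanog-/- ESCs (511 after scaling). WT ESCs exceeded EpiSCs by 3.20-fold after scaling, a difference of -1.67. Without scaling the difference was -0.76 and no longer past 2-fold. In Nanog-/- ESCs the difference was 0.20.

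The 3 Dppa genes were near 1 RPKM in EpiSCs, at the 33.1 to 36.9 percentile of all genes. Dppa5a was the 7th highest gene in WT ESCs, at 4144 RPKM, and in Nanog-/- ESCs, at 3731 RPKM (3556 after scaling), but had 1.18 RPKM in EpiSCs (0.626 after scaling). Its difference in EpiSCs was -11.32, and the WT ESC level was 6620-fold the scaled EpiSC level. Dppa5a also has the pseudogenes Dppa5b and Dppa5c in the RefSeq annotation, and how shared reads were counted is not given in the sources used here.

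Dppa2 and Dppa4 moved side by side. Dppa2 had 100.1 RPKM in WT ESCs, 0.838 in EpiSCs (0.444 after scaling) and 168 in Nanog-/- ESCs (160 after scaling). Dppa4 had 167, 1.499 (0.795 after scaling) and 237 RPKM (226 after scaling). The differences in EpiSCs were -6.13 for Dppa2 and -6.54 for Dppa4, which are ratios of WT ESC to scaled EpiSC level of 225 and 209. These ratios, like that of Dppa5a, rest on EpiSC values near 1 RPKM whose read depth is unknown. In Nanog-/- ESCs both were above WT ESCs, by 0.67 and 0.44, and neither passed 2-fold.

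In Nanog-/- ESCs, 0 of the 8 genes were more than 2-fold higher than in WT ESCs and 0 were more than 2-fold lower, and 1.5% and 1.51% of all genes were. Of the high genes, 0.642% were higher and 2.17% lower. The scaled ratios of the 8 genes to WT ESCs ran from 0.858 for Dppa5a to 1.60 for Dppa2, and Dppa2 alone passed 1.5-fold. Set against Nanog-/- ESCs in place of WT ESCs, EpiSCs had the same 4 genes more than 2-fold lower, Utf1 at -1.87, Dppa2 at -6.80, Dppa4 at -6.98 and Dppa5a at -11.10, beside 9.51% of all genes and 23.5% of the high genes. None of the 8 was more than 2-fold higher, as 9.95% of all genes and 2.96% of the high genes were. Sall4 was at -0.97 in that comparison, just inside 2-fold, and at -0.13 without scaling. The comparisons share samples in pairs, so their values are not independent.

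**Figure D2:**
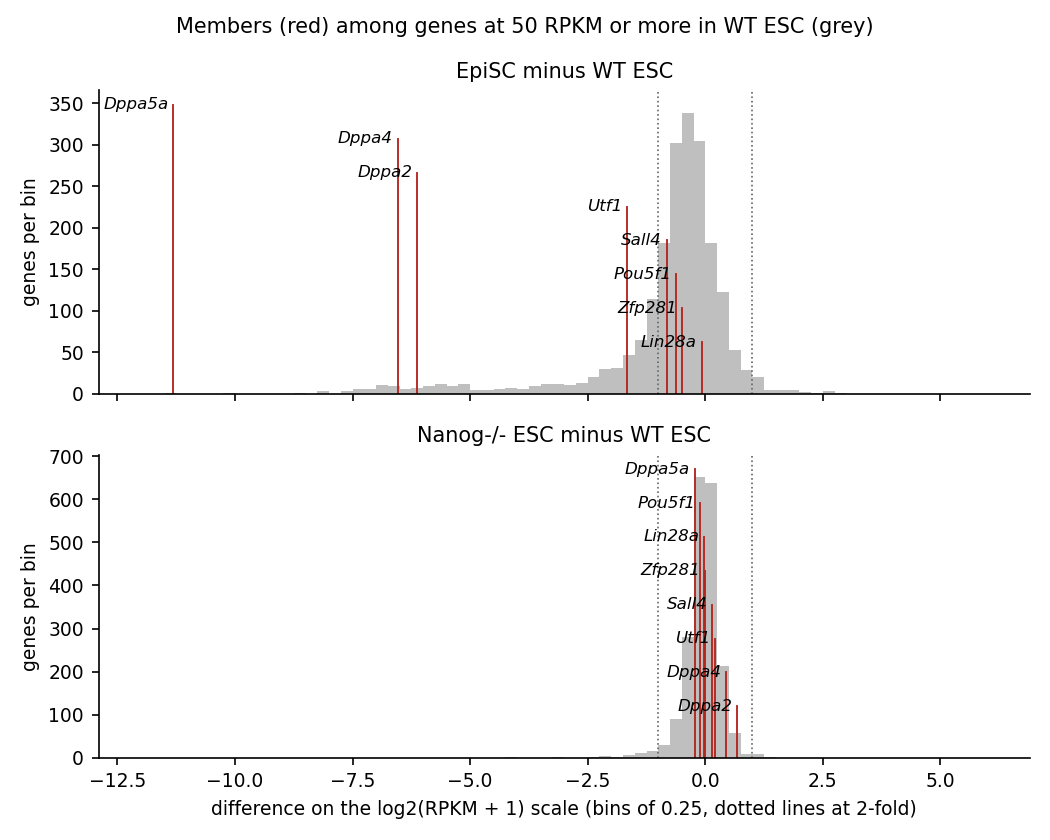
Difference on the log2(RPKM + 1) scale, after scaling, from WT ESCs in EpiSCs (top) and in Nanog-/- ESCs (bottom), for the 8 genes (red lines, whose height only separates the names) over the 2025 genes at 50 RPKM or more in WT ESCs (grey, number per bin). In EpiSCs Dppa5a, Dppa4 and Dppa2 lie far to the left of the main body, Utf1 lies left of the 2-fold line, and Sall4, Pou5f1, Zfp281 and Lin28a lie within the body and would be above 0 without scaling. In Nanog-/- ESCs all 8 lie between the 2-fold lines.

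Related gene lists show where these values stand among the partners of the members. Of 12 measured naive factors, 12 were lower in EpiSCs, with a median of -4.34. In Nanog-/- ESCs 4 were lower, namely Klf4, Dppa3, Nr5a2 and Nanog itself, the gene deleted in that line. On the log2(RPKM + 1) scale, the differences in EpiSCs were largest for the transcription factor genes Esrrb (-7.23), Nr0b1 (-6.99, listed at 0 RPKM in EpiSCs) and Klf2 (-6.26). By the ratio of WT ESC to scaled EpiSC level, Dppa3 (2315) was above Esrrb (512) and Klf2 (102). Dppa2 and Dppa4, at -6.13 and -6.54, lie within the range of this list, and Dppa5a, at -11.32, lies below it. On this scale the WT ESC level limits how far a gene can fall. That level was 4144 RPKM for Dppa5a and at most 418 RPKM, for Nanog, in the naive list. Of 9 measured factors shared by both pluripotent states, 5 were lower in EpiSCs, among them Nanog, which is counted in both lists. Sox2, the DNA-binding partner of OCT4, was at -2.43, Jarid2 at -1.55 and Tdgf1, a Nodal co-receptor, at -1.41. Without scaling 11 of the 12 naive factors were still past 2-fold, the exception being Nanog, but of the 9 shared factors Sox2 alone was, with Jarid2 and Tdgf1 at -0.66 and -0.49.

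Of 11 measured NuRD-related genes, with which SALL4 acts, 1 was called in EpiSCs. This was Hdac1, a histone deacetylase, at 158 RPKM in WT ESCs and 19.6 scaled RPKM in EpiSCs, a difference of -2.95. The SALL4 relative Sall1 was at -0.90, Mta3 at -0.71 and the most abundant member, Rbbp7, at -0.46, all of which were above 0 without scaling (0.003, 0.17 and 0.45). Without scaling Hdac1 stayed lower and 3 of the 11, Chd4, Mta1 and Hdac2, were called higher, beside 30.1% of all genes. None of the 11 was called in Nanog-/- ESCs.

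Of 13 measured genes of the LIN28 and let-7 pathway, 2 were higher and 2 lower in EpiSCs, with a median of 0.16, and without scaling 7 were higher and 1, Hmga1, lower, with a median of 1.06. At that setting 30.1% of all genes were higher and 5.78% lower. Hmga2, a chromatin protein gene known as a let-7 target, had 4.59 RPKM in WT ESCs and was higher in both other states, at 53.96 scaled RPKM in EpiSCs and 33.7 in Nanog-/- ESCs (3.30 and 2.64). Its relative Hmga1 had 702 RPKM in WT ESCs and 40.7 scaled RPKM in EpiSCs (-4.08), and 718 in Nanog-/- ESCs (0.03). Igf2bp3 was the other higher gene in EpiSCs, and Mycn, at -1.82, the other lower one. In Nanog-/- ESCs, Hmga2 and Myc were higher and Igf2bp2 lower. Lin28a itself was at 219 to 231 scaled RPKM in the 3 states.

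Of 5 oocyte and early embryo genes named or studied with the Dppa family, 4 were lower in EpiSCs, Dppa3 at -6.18, Ooep at -6.13, Khdc3 and Tcl1, and 3, Dppa3, Ooep and Khdc3, were lower in Nanog-/- ESCs. Tcl1, a coactivator of AKT, was the most abundant of them in WT ESCs, at 96.2 RPKM, and was listed at 0 in EpiSCs (-6.60). Dppa3 and Ooep had 74.1 and 72.4 RPKM in WT ESCs and 12.9 and 22.6 scaled RPKM in Nanog-/- ESCs, whereas Dppa2, Dppa4 and Dppa5a were not called there. None of the 8 listed 2-cell type genes that DPPA2 and DPPA4 are known to activate, such as Zscan4c, is in the table.

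The 8 baits took part in 42 different contacts, all within a chromosome. The WT ESC list held 22 of them (465 reads), the EpiSC list 21 (377 reads) and the Nanog-/- list 16 (213 reads). The whole lists hold 100492, 87369 and 74931 pairs of fragments with 2177383, 1651422 and 1440356 reads. These sums cover listed contacts and are not the depth of the libraries. Of the 42 contacts, 31 were in 1 list, 5 in 2 lists and 6 in all 3, a share of the latter to be read against 14.4% of the 174253 different pairs of the 3 lists. By list, 12 were in the WT ESC list only, 13 in the EpiSC list only and 6 in the Nanog-/- list only, as were 25.1%, 23.4% and 15.0% of all different pairs. A contact that is in no list had a score under 5, the lowest listed score, and need not be absent.

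The contact numbers of these baits differed between lists about as often as those of all baits. From WT ESCs to EpiSCs, 4 of the 8 baits had fewer contacts (Pou5f1 5 to 1, Sall4 2 to 0, Dppa4 1 to 0, Lin28a 2 to 0). More were listed for 3 baits (Zfp281 4 to 8, Utf1 4 to 7, Dppa5a 2 to 3). Dppa2 had 2 in each of these lists, with different partner fragments. Of all baits, 52.8% had fewer contacts in the EpiSC list and 33.5% had more. In the Nanog-/- list 5 had fewer than in WT ESCs, with Pou5f1 at 3, Zfp281 at 2, Lin28a at 1 and Sall4 and Dppa4 at 0, and Dppa5a alone had more, at 4, beside 60.7% and 21.6% of all baits. RNA level and contact number were lower together in EpiSCs for some of these genes and not for others, and no association was computed. Dppa4 was called lower and had 0 contacts in place of 1, and Pou5f1 and Sall4 had fewer contacts and, after scaling only, lower levels within 2-fold. Utf1 and Dppa5a were called lower in EpiSCs and had more listed contacts there, and Lin28a had almost equal scaled RNA levels in the 3 states and 2, 0 and 1 contacts. No bait lacked a contact in WT ESCs, 3 did in EpiSCs and 2 in Nanog-/- ESCs, where 10.3%, 15.0% and 25.3% of all baits did. All baits are those named in the lists, so captured promoters without any listed contact are not counted.

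**Figure D3:**
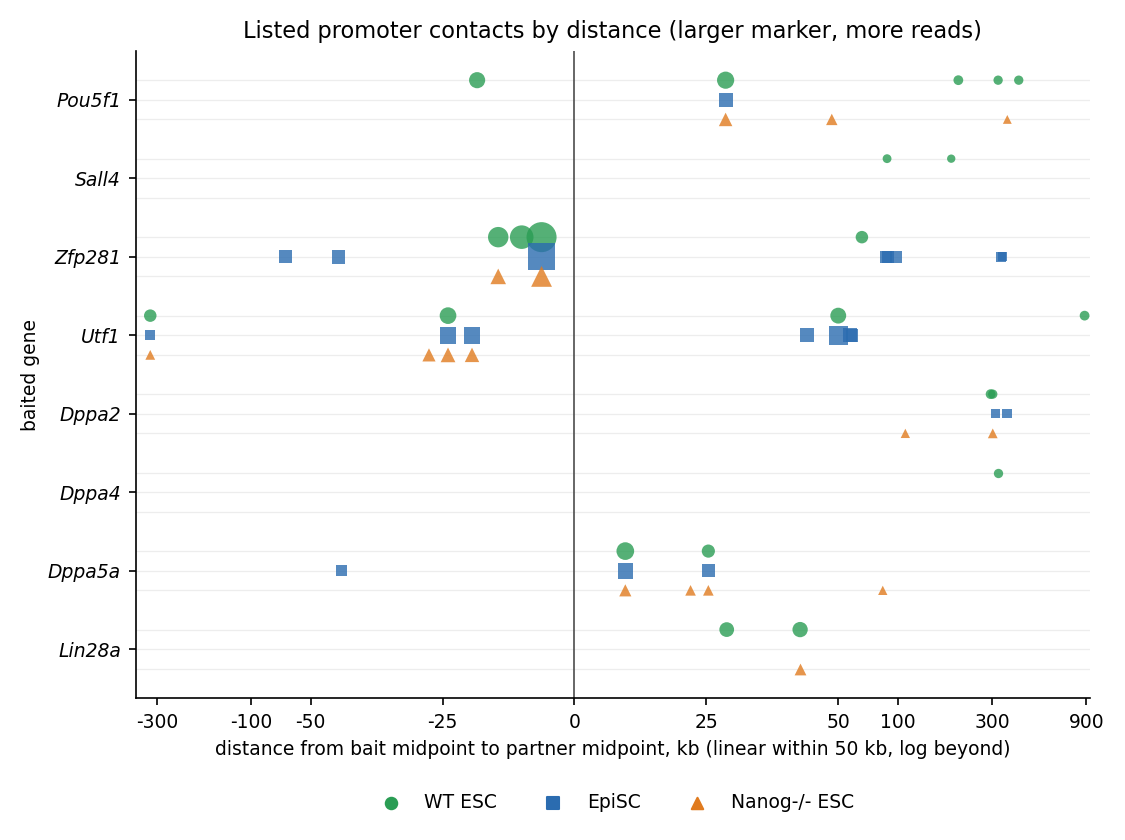
Listed contacts of the 8 baits by distance from bait to partner midpoint in kb (linear within 50 kb and logarithmic beyond, positive towards higher coordinates), in the WT ESC (circles), EpiSC (squares) and Nanog-/- ESC (triangles) lists, with marker area growing with reads. Sall4, Dppa4 and Lin28a have no square, Dppa2 has every contact at 109 kb or more on the right, and the 3 large markers 6.24 kb to the left belong to Zfp281.

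Of the 22 WT ESC contacts, 7 were also in the EpiSC list (31.8%, Wilson 95% interval 16.4% to 52.7%), where 39.6% of all WT ESC pairs were. In the Nanog-/- list were 9 of the 22 (40.9%, 23.3% to 61.3%), where 41.8% of all pairs were. Under 50 kb the shares were 5 and 7 of 10 (50.0%, 23.7% to 76.3%, and 70.0%, 39.7% to 89.2%), beside 48.9% and 71.3% of all pairs. At 50 kb or more they were 2 and 2 of 12 (16.7%, 4.70% to 44.8%), beside 36.6% and 32.5%. Read from the other side, 7 of the 21 EpiSC contacts were in the WT ESC list (33.3%, 17.2% to 54.6%), beside 45.5% of all EpiSC pairs, with 5 of 9 under 50 kb (26.7% to 81.1%) and 2 of 12 beyond (4.70% to 44.8%), beside 60.7% and 41.0%. Of the 16 Nanog-/- contacts 9 were in the WT ESC list (56.25%, 33.2% to 76.9%), beside 56.0% of all pairs, with 7 of 11 under 50 kb (35.4% to 84.8%) and 2 of 5 beyond (11.8% to 76.9%), beside 56.4% and 55.7%. Of the 7 WT ESC contacts with scores of 7 or more, 4 were in the EpiSC list and 5 in the Nanog-/- list (57.1%, 25.0% to 84.2%, and 71.4%, 35.9% to 91.8%), beside 57.8% and 60.4% of all such pairs. All these intervals include the share over all pairs. They cover counting error only, and contacts of 1 bait share their fragment.

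The partner was itself a bait in 13 of the 22 WT ESC contacts (59.1%), 7 of the 21 EpiSC contacts (33.3%) and 7 of the 16 Nanog-/- contacts (43.75%), with Wilson 95% intervals of 38.7% to 76.7%, 17.2% to 54.6% and 23.1% to 66.8%. Counted in the same way, from each bait, 37.5%, 31.0% and 36.0% of all contacts had a baited partner, which lies within the interval for EpiSCs and Nanog-/- ESCs and just below it for WT ESCs. Median distances were 58.0, 57.4 and 28.1 kb, and those of all pairs within a chromosome 139, 141 and 74.1 kb. At scores of 7 or more, which leaves 7, 4 and 5 contacts, the members' medians were 42.8, 73.4 and 42.8 kb, so the shorter Nanog-/- median depends on the score limit. The intervals of the members' medians over all listed contacts, 24.0 to 302 kb, 28.7 to 98.1 kb and 19.4 to 109 kb, include the median of all pairs for WT ESCs and Nanog-/- ESCs but not for EpiSCs. Zfp281 and Utf1 alone hold 8 and 7 of the 21 EpiSC contacts. The Wilson and median intervals treat contacts of the same bait as independent, so they can be too narrow. No listed contact joined any of the 8 baits to another of them.

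The Pou5f1 bait (chr17:35504152-35506204, 2053 bases, holding an exon of Pou5f1) had 1 contact in all 3 lists, with the Psors1c2 promoter fragment 28.7 kb away (chr17:35532836-35534848). Its reads were 29 (WT ESCs), 18 (EpiSCs) and 16 (Nanog-/- ESCs), with scores of 8.23, 5.13 and 8.48. The starts of Tcf19 and Cchcr1 lie between the fragments. Psors1c2 RNA was at 10.6 RPKM in WT ESCs, 11.0 scaled RPKM in EpiSCs and 2.29 in Nanog-/- ESCs. The level was lowest in Nanog-/- ESCs, where the score was close to that of WT ESCs (8.48 and 8.23). The ratio of Nanog-/- to WT ESC reads was 0.552, within the quartiles over all shared pairs, 0.533 and 0.724. In EpiSCs the ratio was 0.621, at an RNA level close to that of WT ESCs. A link between this contact and Psors1c2 RNA was not tested.

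The other 4 WT ESC contacts of Pou5f1 were in no other list. An intergenic fragment 18.5 kb on the other side (chr17:35482871-35490581) had 25 reads and a score of 6.39. The baited fragments of the collagen receptor gene Ddr1 at 203 kb, Flot1 at 322 kb and the tubulin acetyltransferase gene Atat1 at 409 kb had 6, 5 and 5 reads and scores of 5.14, 5.13 and 5.84. The Nanog-/- list added Cdsn at 48.8 kb (10 reads, score 7.33) and Nrm at 358 kb (4 reads, score 5.66). These 5 baited partners rest on 4 to 10 reads each. RNA of Ddr1 was 22.3 RPKM in WT ESCs and 66.7 scaled RPKM in EpiSCs, RNA of Flot1 was 27.3 and 26.5, and RNA of Atat1 was 3.42 and 9.50, where none of the 3 contacts was listed. The Nanog-/- list did not hold them either, at scaled levels of 19.2, 21.6 and 2.16 RPKM for Ddr1, Flot1 and Atat1.

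Sall4 (bait chr2:168764865-168771996) had contacts in WT ESCs only. They joined it to the baited fragment AL844882.1 at 88.4 kb (4 reads, score 5.73) and to the Zfp64 promoter fragment at 187 kb (3 reads, score 5.37). With exact Poisson 95% intervals of 1.09 to 10.2 and 0.619 to 8.77 reads, both lie near the smallest number that a list holds, which is 2.

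Zfp281 (bait chr1:136624484-136632105) had the contacts with the most reads. A fragment 6.24 kb away (chr1:136621236-136622881) had 99 (WT ESCs), 77 (EpiSCs) and 45 reads (Nanog-/- ESCs), with scores of 7.9, 6.38 and 5.87. Its neighbours at 14.5 kb (43 reads in WT ESCs, 23 in Nanog-/- ESCs) and 10.0 kb (59 reads, WT ESCs) lay on the same side, and a fragment at 65.9 kb on the other side was in the WT ESC list only. The EpiSC list held 7 further contacts that no other list held, at 44.7 and 67.3 kb on the left and at 87.6, 89.4, 98.1, 332 and 339 kb on the right. The highest score among them, 8.86, belonged to the fragment at 98.1 kb with 13 reads (chr1:136725031-136727663). The one at 332 kb joined Zfp281 to the Nr5a2 promoter fragment (chr1:136959986-136960563, 6 reads, score 6.31). Nr5a2, a nuclear receptor gene of the naive factor list, was at 26.4 RPKM in WT ESCs and 0.0985 scaled RPKM in EpiSCs, the state in which this contact was listed.

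Utf1 (bait chr7:139937774-139944990) had 2 contacts in all 3 lists. The fragment E030019B06Rik, with an exon of Cfap46, at 324 kb (chr7:139616099-139618988) had 13, 6 and 6 reads and scores of 11.99, 5.42 and 6.2, the highest score of these genes in WT ESCs. A fragment in the neighbouring gene Kndc1 at 24.0 kb, of which the bait also holds an exon, had 27, 27 and 20 reads. The Adam8 promoter fragment at 50.1 kb (chr7:139988195-139994687) had 24 reads and a score of 5.82 in WT ESCs, 37 reads and a score of 14.03 in EpiSCs, and was not in the Nanog-/- list. The latter was the highest score of these genes in any list, in the state where Utf1 RNA was lowest, and Adam8 RNA was 2.21 RPKM in WT ESCs and 3.94 scaled RPKM in EpiSCs.

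Next to it, the EpiSC list alone held an Adam8 exon fragment at 44.0 kb (17 reads) and a pair of adjoining fragments in Tubgcp2 at 57.4 and 58.9 kb (19 and 13 reads). Together with the Adam8 promoter fragment, 4 EpiSC contacts of Utf1 thus fell between 44.0 and 58.9 kb. A Kndc1 fragment at 19.4 kb was in the EpiSC and Nanog-/- lists (28 and 19 reads), and one at 27.6 kb in the Nanog-/- list only (15 reads). The longest contact of these genes joined Utf1 to the Zfp941 promoter fragment at 881 kb in WT ESCs (6 reads, score 7.71). Zfp941 RNA was 8.999 RPKM in WT ESCs, 1.36 scaled RPKM in EpiSCs and 8.67 in Nanog-/- ESCs.

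Dppa2 (bait chr16:48310057-48313634) and Dppa4 (bait chr16:48282154-48284858) lie side by side and contacted the same gene, Morc1, which encodes a germline chromatin protein. In WT ESCs, Dppa2 contacted an intron fragment of Morc1 at 295 kb (chr16:48605250-48608389, 6 reads, score 7.79) and an exon fragment at 302 kb (5 reads, score 6.19). The single listed contact of Dppa4, at 321 kb in WT ESCs, ended on the fragment that adjoins the first of these (chr16:48603190-48605249, 5 reads, score 6.15). The exon fragment at 302 kb was also in the Nanog-/- list, with 6 reads and a score of 10.84, the highest of these genes there. In EpiSCs, Dppa2 contacted another Morc1 exon fragment at 312 kb and an intergenic fragment at 357 kb (5 reads each, scores 6.43 and 6.62), and Dppa4 had no listed contact. Morc1 RNA was 81.3 RPKM in WT ESCs, 0.110 scaled RPKM in EpiSCs and 30.1 in Nanog-/- ESCs. Of the 5 contacts of Dppa2, 1 was in more than 1 list, and none had more than 6 reads.

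Dppa5a (bait chr9:78368137-78375003) kept its 2 WT ESC contacts in every list. The fragment of Ooep, a gene of the oocyte subcortical complex, at 9.65 kb (chr9:78376094-78386336) had 31, 23 and 12 reads and scores of 11.9, 6.3 and 5.36. Only 1090 bases lie between this fragment and the bait. The fragment of the helicase gene Ddx43 at 25.4 kb (chr9:78394401-78399516) had 15, 14 and 8 reads and scores of 6.66, 5.25 and 5.11. The RNA of all 3 genes was below 1 scaled RPKM in EpiSCs, where Ooep had 0.0522 and Ddx43 0.0105 scaled RPKM against 72.4 and 6.61 in WT ESCs. Both contacts were therefore also listed in the state in which the genes at their ends had the lowest RNA levels. In EpiSCs and Nanog-/- ESCs the Ooep contact was listed from the Ooep bait only. The EpiSC list added Omt2b at 44.2 kb (10 reads), and the Nanog-/- list fragments at 22.0 and 84.1 kb (8 and 5 reads).

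Lin28a (bait chr4:134018413-134027622) contacted the baited fragments Gm13060 at 28.9 kb (20 reads, score 5.18) and Aim1l, with an exon of the gene now called Crybg2, at 42.8 kb (22 reads, score 8.26) in WT ESCs. The Aim1l contact was also in the Nanog-/- list, with 11 reads and a score of 7.15. The EpiSC list held no contact of Lin28a, at a scaled RNA level of 219 RPKM.

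Reads of contacts held by more than 1 list were set against the same ratio over all shared pairs. The median ratio of EpiSC to WT ESC reads was 0.833 over 39765 shared pairs, with quartiles of 0.691 and 1.00. The 7 shared contacts of these genes ran from 0.462, for Utf1 and E030019B06Rik, to 1.54, for Utf1 and Adam8, the one contact above the upper quartile. The Psors1c2 contact of Pou5f1 was at 0.621, and those of Dppa5a with Ooep and Ddx43 at 0.742 and 0.933. The median ratio of Nanog-/- to WT ESC reads was 0.621 over 41986 pairs, with quartiles of 0.533 and 0.724. The 9 shared contacts ran from 0.387, for Dppa5a and Ooep, to 1.2, for Dppa2 and Morc1, where the reads were 6 and 5. The Poisson intervals of WT ESC and Nanog-/- reads did not overlap for Dppa5a and Ooep (21.1 to 44.0 and 6.20 to 20.96) and for the Zfp281 fragment at 6.24 kb (80.5 to 121 and 32.8 to 60.2). At the median ratio of 0.621, lower read numbers in the Nanog-/- list are general. The share of all shared pairs whose intervals lie apart was not computed, so the separation cannot be called particular to these contacts.

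**Figure D4:**
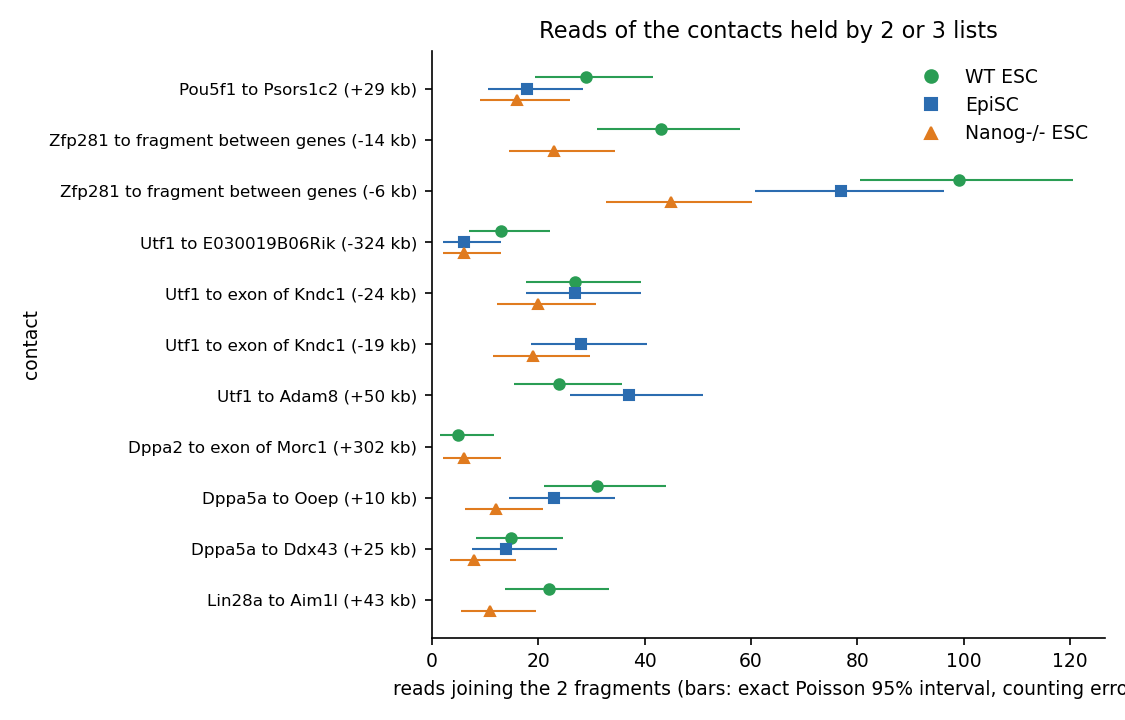
Reads (horizontal axis) that join bait and partner for the 11 contacts held by 2 or 3 lists, in WT ESCs (circles), EpiSCs (squares) and Nanog-/- ESCs (triangles), with exact Poisson 95% intervals that cover counting error only. WT ESC and Nanog-/- intervals are apart for the nearest Zfp281 fragment and for Dppa5a with Ooep, and the square of Utf1 with Adam8 is above its circle at 37 against 24 reads. Reads in the Nanog-/- list are lower over all shared pairs as well, at a median ratio of 0.621 to WT ESCs.

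The contacted fragments of at most 300 bases are shown because they place a contact most closely. All 5 of them were in the EpiSC list only, as were 60.1% of the 9630 different pairs with a partner of at most 300 bases, against 23.4% of all pairs. Partner length therefore moves with the list in the series as a whole, and its part in these contacts was not tested. Both EpiSC contacts of Dppa2 end on such short fragments. They were read from GRCm38.p6 on the plus strand, and capitals mark the HindIII ends and the motif letters found. The Zfp281 partners are chr1:136715866-136716017 (11 reads, score 6.42) and chr1:136717609-136717781 (12 reads, score 7.31), both between genes. The Utf1 partner is chr7:139998639-139998872 in Tubgcp2 (19 reads, score 8.83). The Dppa2 partners are chr16:48624185-48624346 in Morc1 and chr16:48668822-48669080 between genes.
Zfp281, 87.6 kb: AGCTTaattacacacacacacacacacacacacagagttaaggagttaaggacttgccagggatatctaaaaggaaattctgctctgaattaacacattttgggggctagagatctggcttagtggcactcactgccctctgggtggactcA
Zfp281, 89.4 kb: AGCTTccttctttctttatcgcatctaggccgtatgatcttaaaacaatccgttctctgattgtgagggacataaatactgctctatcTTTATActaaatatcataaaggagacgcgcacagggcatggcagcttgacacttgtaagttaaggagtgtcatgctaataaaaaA
Utf1, 57.4 kb: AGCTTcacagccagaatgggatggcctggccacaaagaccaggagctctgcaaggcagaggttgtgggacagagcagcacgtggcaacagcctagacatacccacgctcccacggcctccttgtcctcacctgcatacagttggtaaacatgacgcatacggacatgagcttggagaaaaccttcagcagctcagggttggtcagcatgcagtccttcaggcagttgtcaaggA
Dppa2, 312 kb: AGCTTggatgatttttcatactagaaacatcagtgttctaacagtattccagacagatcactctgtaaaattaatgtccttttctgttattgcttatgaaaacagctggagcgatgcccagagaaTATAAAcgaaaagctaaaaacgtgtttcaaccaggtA
Dppa2, 357 kb: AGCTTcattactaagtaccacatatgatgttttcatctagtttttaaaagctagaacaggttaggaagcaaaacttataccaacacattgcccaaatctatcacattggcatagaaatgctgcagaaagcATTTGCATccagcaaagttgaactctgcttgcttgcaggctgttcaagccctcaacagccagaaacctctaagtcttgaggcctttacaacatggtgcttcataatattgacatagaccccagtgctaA

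The Dppa2 partner at 357 kb holds the octamer ATGCAAAT on the strand opposite to the printed one, at position 131, as do 0.919% of the 5006 listed fragments of 150 to 300 bases. TATAAA is in 2 of the 5 fragments and in 11.5% of the listed ones. CATTGT and GGGGAGGG, in 12.4% and 2.04% of them, are in none of the 5. The AAGCTT sequence of HindIII spans both ends of all 50 bait and partner fragments of these genes.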

How the data were processed

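The series holds 26 samples, and the 4 ChIP-seq samples were not analysed here. Lists of PCHi-C contacts and a table of RNA levels were used. The authors deposited, for each contact, the count of reads joining a pair of HindIII fragments and a CHiCAGO score, after filtering with HiCUP and combining the replicates of each state (GRCm38). The RPKM values are the authors' medians per group as deposited. The submitters' processing notes name Bowtie 1.1.0, TopHat and Trim Galore. Fold changes and calls that the authors deposited in the same table were not used. The column of Nanog-/- ESCs is named BT12 in the table and was assigned by the series' design text. Per-sample depth is unknown.

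Levels were scaled to WT ESCs by the median ratio over genes at 1 RPKM or more, put on the log2 scale after adding 1 RPKM, and called past 2-fold. Pairs listed from both ends were counted once, with the higher reads and score. Distances run between fragment midpoints. Shares of the members' contacts have Wilson 95% intervals, reads exact Poisson 95% intervals, and medians 95% intervals from order statistics. The values used give 1 number per state, and no test between states was run. All 9 genes are named, and from each related list the 3 with the largest EpiSC difference and the most abundant one. For contacts, those named are the highest score per gene and list, baited partners and contacts in all 3 lists, with further members described after their values were seen. The genes and lists were chosen with earlier results of these data known. Older symbols were matched through RefSeq synonyms, and exons are those of GENCODE models of protein-coding genes on GRCm38. Scalings of the related lists were compared after the data were seen. Scripts were tested on simulated data. Python 3.11.15, numpy 2.4.6, pandas 2.3.3, scipy 1.17.1 and matplotlib 3.10.9 were used.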

Additional observations from a re-analysis of the deposited data

How the results depend on the processing

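No paired analysis was possible because each state has 1 median RNA level and 1 combined contact list, and for the same reason no replicate could be left out. Of the 96 alternative values of single RNA differences, 82 kept their direction and their side of 2-fold. Without scaling, Utf1 in EpiSCs was at -0.76 and no longer past 2-fold, and Pou5f1, Sall4, Zfp281 and Lin28a were above WT ESCs, at 0.29, 0.08, 0.40 and 0.84. That setting moves the median of all genes to 0.46 and the share of higher genes among those called from 51.9% to 83.9%. Against Nanog-/- ESCs, EpiSC differences changed sign likewise without scaling, for Pou5f1 from -0.51 to 0.33, for Zfp281 from -0.48 to 0.35 and for Lin28a from -0.05 to 0.79. The other changed values, for Zfp281 and Lin28a, lay within 0.09 of 0 on both sides. At 1.5-fold, 1 gene (Dppa2) was higher in Nanog-/- ESCs in place of 0. At that threshold 6 genes in place of 4 were lower in EpiSCs than in WT ESCs, with Sall4 and Pou5f1 added. Against Nanog-/- ESCs, 5 in place of 4 were lower in EpiSCs, with Sall4 added. A pseudocount of 0.1 RPKM, a 4-fold threshold, a 75th percentile scaling and a floor of 1 RPKM left the counts of called genes within 1.5 times. With scores of 7 or more the lists held 7, 4 and 5 contacts (WT ESC, EpiSC, Nanog-/-), and with 10 or more 2, 1 and 1. Of the 7 WT ESC contacts at 7 or more, 57.1% were in the EpiSC list and 71.4% in the Nanog-/- list, beside 57.8% and 60.4% of all WT ESC pairs at such scores. Limits of 5 reads, contacts entered from the member's own bait, distances between nearest ends and partners within 10 kb stayed within 1.5 times or within the intervals. Depth is unknown for both data types, so low RNA levels and contacts of 3 to 6 reads have the least support.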

Other observations

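A pair of baited fragments can be entered in a list from both ends. In the WT ESC list 29 of 7324 such pairs had unequal reads in the 2 entries, in the EpiSC list 13 of 5593 and in the Nanog-/- list 1217 of 7297. The contact of Pou5f1 with Psors1c2 is one of the latter, with 15 reads in one entry and 16 in the other. The difference is small for this contact, and its origin was not tested.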
